A study of Oryctolagus cuniculus with 36 samples.

Results

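The genes described here are those that the sterol regulatory element-binding proteins (SREBPs) drive in the liver, in RNA sequencing of rabbit liver. A list of 35 genes of cholesterol, fatty acid and glycerolipid synthesis, with their regulators, was matched by name to a table of 23394 genes. Of these, 30 had a row: 19 of 21 genes of the cholesterol arm and 11 of 14 of the fatty acid and glycerolipid arm. IDI1 stands in the table as LOC100343510, and CYP51A1 was found through its RefSeq gene ID, as LOC100355623. MVD, DHCR7, FASN, SCD and AGPAT2 had no row matched to them and were not analysed here. All 30 members passed the filter on low counts, with 440.0 to 177214 counts each in a set.

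SREBPs are transcription factors that are held in the membrane of the endoplasmic reticulum. When sterols are low, the escort protein SCAP carries them to the Golgi, where they are cut, and the freed part enters the nucleus; INSIG proteins hold SCAP back when sterols are plentiful. The SREBP made from SREBF2 mainly drives cholesterol synthesis and uptake, and the liver form made from SREBF1, which insulin and the oxysterol receptor LXR raise, mainly drives fatty acid and glycerolipid synthesis. MLXIPL encodes ChREBP, a carbohydrate-responsive factor that acts on several of the same lipogenic genes.

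The series concerns correcting a gene with CRISPR/Cas9 in newborn rabbits that model hereditary tyrosinemia, a disease caused by loss of FAH, the enzyme that ends the breakdown of tyrosine. The titles form 3 groups of 12 libraries: WT (wild type), FA and FK, and the labels do not spell out FA or FK or give the genotype, the editing agent, the dose or the age of any group. All 36 libraries carry the same disease label, WT included, and all livers were trypsinized before TRIzol extraction. Each group holds 3 numbered sets of 4 libraries, and the 4 were summed, so that n = 3 sets per group. Nothing in the labels ties sets to separate animals. The p-values therefore rest on the spread among the sets alone, and that spread may be technical.

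Libraries held 11.7 to 22.5 M counts and sets 53.2 to 78.6 M. Levels are given as CPM, counts per M counts after scaling between sets (TMM). FAH stood at 237, 271 and 217 CPM in the WT sets, 25.7, 24.7 and 19.6 in the FA sets and 16.4, 11.8 and 14.6 in the FK sets, lower in every FA and FK set than in any WT set. FK sets 1 and 2 stood apart from the other 7 sets on the first principal component (56.7% of the variance; 141 and 154 against -48.2 to -34.4), and FK set 3 lay with the others. Summed markers of erythroid cells were 737 and 2042 CPM in FK sets 1 and 2, 17.9 in FK set 3, 23.9 to 88.5 in WT and 11.1 to 26.5 in FA (13 of 13 markers in the table). Neutrophil markers were 1195, 2056 and 27.8 CPM in FK sets 1, 2 and 3, 16.5 to 27.7 in WT and 18.9 to 41.2 in FA (8 of 9), and markers of dividing cells were 304, 619.9 and 49.0, 45.5 to 93.4 and 44.0 to 56.6 (10 of 10). None of the genes of these 3 lists was at 0 in all sets of a group. The 10 hepatocyte markers summed to 197024 to 263847 CPM in WT, 211519 to 275964 in FA and 235153, 149657 and 237690.0 in FK sets 1, 2 and 3, and none of them was at 0. ALB made up most of that sum, with 158959, 214516 and 218511 CPM in WT and 145935, 85039 and 180732 in FK. Singly, APOB, APOA1, TF and FGB lay above all WT sets in all FK sets and TTR below them; of the 10, edgeR called APOA1 alone between FK and WT (higher), 2 were higher and 0 lower at an unadjusted p under 0.05, and the median log2 difference was 0.57. Markers of other cells were, in WT, FA and FK in turn, 452 to 609, 233 to 335 and 359.5 to 654 CPM for macrophages (8 of 10 in the table), 84.1 to 98.1, 28.5 to 37.6 and 3.58 to 29.2 for B and plasma cells (6 of 7), and 10.01 to 12.1, 6.20 to 10.2 and 4.00 to 10.2 for T and NK cells (10 of 10). They were 293 to 351, 165 to 242 and 232 to 392 CPM for endothelium (9 of 9), 250.0 to 321, 147 to 225 and 196 to 288 for stellate cells (9 of 9), and 14.3 to 18.3, 7.22 to 13.4 and 5.08 to 47.4 for cholangiocytes (6 of 6); the macrophage marker CLEC4F was at 0 in FA. Since FK sets 1 and 2 stand apart, FK set 3 is given by itself beside the results on FK.

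Most genes of cholesterol synthesis were lower in FK than in WT livers. In edgeR's quasi-likelihood test, 13 of the 19 members of the cholesterol arm fell (Benjamini-Hochberg adjusted p under 0.05, over 14939 genes) and 0 rose, where 1.73% of all tested genes fell, 3.04% rose and 4.77% were called in either direction. Those that fell were HMGCS1, MVK, IDI1 and FDPS of the early steps, FDFT1, SQLE and LSS of the squalene steps, CYP51A1, MSMO1, NSDHL, HSD17B7 and SC5D of the late sterol steps, and the sterol carrier STARD4. At an unadjusted p under 0.05, 16 were lower and 0 higher, against 10.2% and 16.7% of all genes. All 3 FK sets lay below all 3 WT sets for 16 of the 19 members, against 13.4% of all genes, and above them for 0, against 13.9%. The median fitted log2 difference was -1.74 (range -3.81 to -0.53) against 0.05 over all tested genes, and FK sets 1, 2 and 3 taken singly had medians of -2.44, -1.64 and -1.69. The differences printed below are fitted log2 differences, with their standard errors (SE) or 95% intervals. In bulk liver, fewer cells of a type and less RNA per cell cannot be told apart.

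The first steps build mevalonate and turn it into the isoprenoid units of sterols. HMGCS1, which makes HMG-CoA, stood at 2829, 951 and 1670.0 CPM in WT sets 1, 2 and 3 and at 104, 169 and 115 CPM in FK sets 1, 2 and 3. Every FK set lay far below the lowest WT set, and on the log2 scale HMGCS1 fell by 3.81 (SE 0.62, adjusted p 0.0271), to 7.12% of the WT mean, the furthest of the 30 members. IDI1, the isomerase that makes dimethylallyl diphosphate, was at 284, 139 and 223 CPM in WT and 18.4, 25.3 and 33.2 CPM in FK. The 3 FK sets lay close together and far below WT, and IDI1 fell by 3.07 (SE 0.41, adjusted p 0.0150), the smallest adjusted p of the members. FDPS, which makes farnesyl diphosphate, was at 243, 101 and 154 CPM in WT and 26.7, 38.7 and 26.8 CPM in FK and fell by 2.43 (SE 0.39, adjusted p 0.0263). MVK, the kinase that phosphorylates mevalonate, was at 59.1, 24.1 and 43.8 CPM in WT and 7.03, 13.6 and 12.4 CPM in FK and fell by 1.95 (SE 0.39, adjusted p 0.0392). The other early members did not pass the test. PMVK, the next kinase, was at 46.5, 34.5 and 39.6 CPM in WT and 21.0, 21.0 and 32.9 CPM in FK, without overlap between the sets but with a small difference of -0.69 (95% interval -1.24 to -0.14, adjusted p 0.114). ACAT2, a cytosolic acetoacetyl-CoA thiolase, was at 1366, 804 and 1367 CPM in WT and 723, 866 and 530.0 CPM in FK, where FK set 2 lay above WT set 2 (-0.74, 95% interval -1.50 to 0.02, adjusted p 0.197).

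The next steps join farnesyl diphosphate into squalene and close it into lanosterol. FDFT1, squalene synthase, was at 301, 175 and 233 CPM in WT sets 1, 2 and 3 and 57.1, 79.9 and 118 CPM in FK sets 1, 2 and 3, and fell by 1.47 (SE 0.32, adjusted p 0.0427). SQLE, squalene epoxidase, a rate-limiting step, was at 322, 149 and 249.8 CPM in WT and 38.2, 52.3 and 18.9 CPM in FK and fell by 2.72 (SE 0.57, adjusted p 0.0414). LSS, lanosterol synthase, was at 489, 190.1 and 265 CPM in WT and 27.3, 48.1 and 58.1 CPM in FK and fell by 2.82 (SE 0.48, adjusted p 0.0304). No FK set overlapped a WT set in any of the 3 genes. FK set 3 was the lowest FK set for SQLE and the highest for FDFT1 and LSS.

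Lanosterol is then trimmed and rearranged to cholesterol. MSMO1, the sterol methyl oxidase, was at 2102, 1431 and 1489 CPM in WT sets 1, 2 and 3 and 150.4, 160.4 and 381 CPM in FK sets 1, 2 and 3; it fell by 2.86 (SE 0.46, adjusted p 0.0263), and by 3.45 without FK set 3. NSDHL, the sterol dehydrogenase that acts with it, was at 198, 109 and 165 CPM in WT and 24.2, 33.7 and 35.9 CPM in FK and fell by 2.33 (SE 0.34, adjusted p 0.0198). HSD17B7, the keto reductase of the same complex, was at 92.8, 61.1 and 67.0 CPM in WT and 25.3, 25.4 and 22.8 CPM in FK and fell by 1.59 (SE 0.31, adjusted p 0.0382). The 3 enzymes of sterol demethylation that work together thus all fell, HSD17B7 with FK sets within a narrow range. CYP51A1, lanosterol demethylase, was at 478, 193 and 304 CPM in WT and 59.8, 104 and 86.9 CPM in FK and fell by 1.96 (SE 0.45, adjusted p 0.0475). SC5D, sterol desaturase, was at 585, 442 and 487 CPM in WT and 210.5, 157 and 213 CPM in FK and fell by 1.38 (SE 0.26, adjusted p 0.0368). The remaining enzymes missed the threshold with no overlap between the sets. TM7SF2, a sterol reductase, was at 267, 111 and 179.6 CPM in WT and 30.1, 36.8 and 99.7 CPM in FK, with FK set 3 near WT set 2 (-1.74, adjusted p 0.0764). EBP, the sterol isomerase, was at 219, 109.7 and 164 CPM in WT and 60.2, 81.8 and 102 CPM in FK (-1.02, adjusted p 0.0776).

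Neither regulator of the cholesterol arm was called. SREBF2 was at 159, 91.3 and 104 CPM in WT sets 1, 2 and 3 and 60.1, 101 and 62.7 CPM in FK sets 1, 2 and 3, with FK set 2 inside the WT range (-0.66, 95% interval -1.50 to 0.17, adjusted p 0.28). INSIG1, the sterol-sensitive brake on SCAP and itself an SREBP target, was at 1370.0, 508 and 2121 CPM in WT and 425, 615 and 1735 CPM in FK (-0.53, 95% interval -1.96 to 0.90, adjusted p 0.629). Both groups spanned a wide range, and FK set 3, above WT set 1, made INSIG1 the 1 member of the arm for which that set was not below the lowest WT set. STARD4, a carrier that moves sterol between membranes, was at 176, 213 and 133 CPM in WT and 78.8, 61.9 and 85.4 CPM in FK and fell by 1.21 (SE 0.27, adjusted p 0.0449). Across the arm, FK set 3 lay below the lowest WT set for 18 of the 19 members, against 33.2% of all tested genes. Its erythroid, neutrophil and dividing-cell marker sums were within the FA range. Its sums were below every WT set for erythroid cells, macrophages, B and plasma cells, T and NK cells, endothelium, stellate cells and cholangiocytes. Its hepatocyte and dividing-cell sums were within the WT range, and its neutrophil sum (27.8 CPM) was just above it (16.5 to 27.7). The part of other cells in these levels was not tested. The plot of cholesterol genes by set shows the level of each member.

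**Figure D1:**
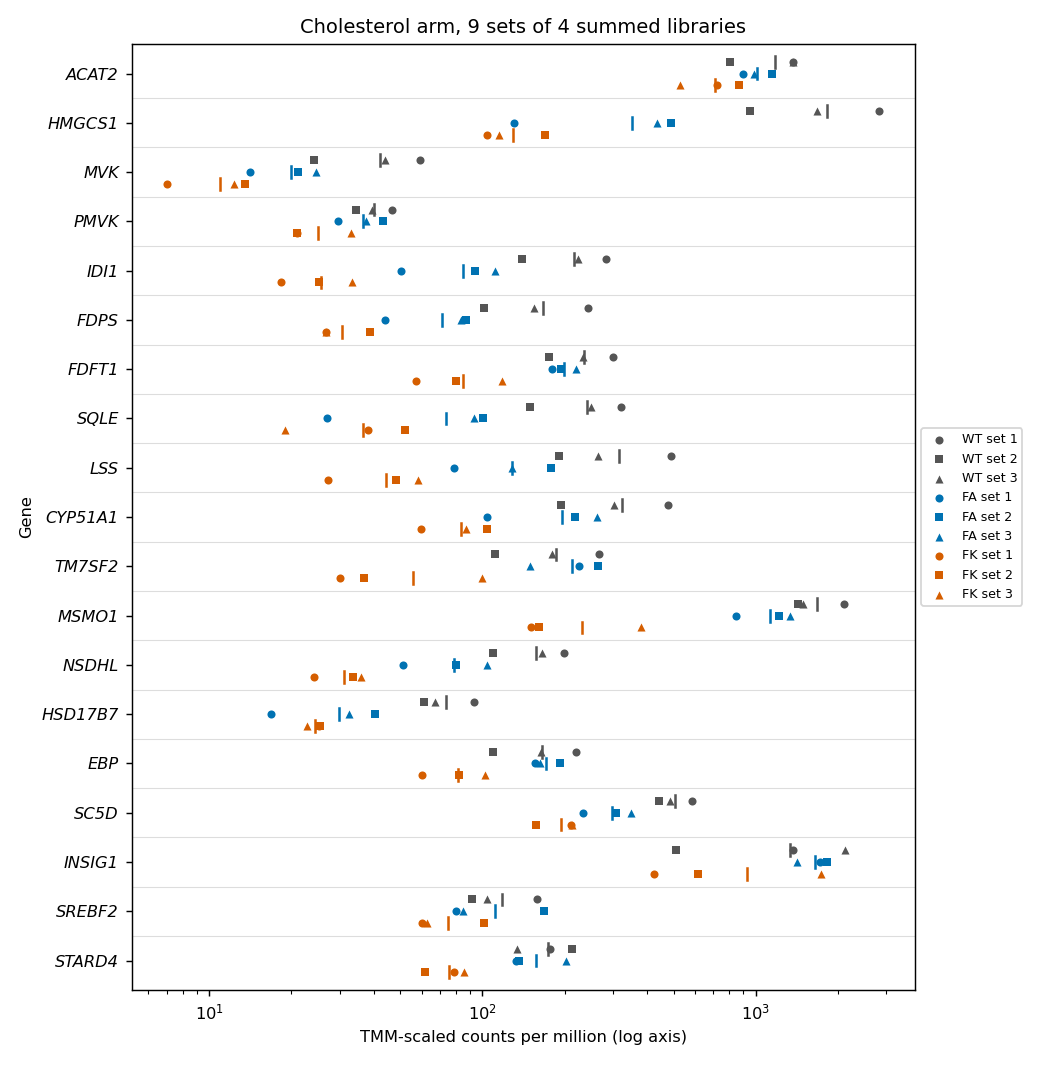
Levels of the 19 measured members of the cholesterol arm in the 9 sets, as TMM-scaled CPM on a log axis; each point is 1 set of 4 summed libraries, coloured by group, with the marker shape giving the set number. The FK points lie left of the WT points for most genes, and all 3 FK sets lie below all 3 WT sets for 16 of the 19.

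In the fatty acid and glycerolipid arm, 6 of the 11 members fell in FK against WT and 0 rose, where 1.73% of all tested genes fell and 3.04% rose. At an unadjusted p under 0.05, 7 were lower and 1 was higher, where 10.2% of all genes were lower, 16.7% higher and 26.9% either. The 6 were the regulator SREBF1, ACACB, ACSS2, ELOVL6 and the glycerolipid enzymes GPAM and LPIN1, and for these 6 alone no FK set overlapped a WT set. The median log2 difference of the arm was -1.45 (range -3.23 to 1.63), with -2.01, -1.51 and -1.34 in FK sets 1, 2 and 3.

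SREBF1 was at 134, 118 and 137 CPM in WT sets 1, 2 and 3 and at 29.9, 45.3 and 66.8 CPM in FK sets 1, 2 and 3. WT was tight, every FK set was lower, and SREBF1 fell by 1.45 (SE 0.28, adjusted p 0.0382). The table counts whole genes, so the liver form of SREBF1 cannot be told from its other form. MLXIPL, which encodes ChREBP, was at 73.7, 72.1 and 56.7 CPM in WT and 64.0, 48.9 and 69.7 CPM in FK, with overlapping sets and a difference of -0.15 (95% interval -0.82 to 0.52, adjusted p 0.784).

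Of the enzymes that supply and extend fatty acids, ACLY and ACACA did not pass the test, and FASN had no row. ACLY, which splits citrate into cytosolic acetyl-CoA, was at 114, 40.7 and 78.7 CPM in WT sets 1, 2 and 3 and 37.9, 62.8 and 19.6 CPM in FK sets 1, 2 and 3 (-0.95, 95% interval -2.06 to 0.15, adjusted p 0.242). ACACA, the acetyl-CoA carboxylase that makes malonyl-CoA for synthesis, was at 78.6, 37.0 and 51.0 CPM in WT and 26.8, 39.3 and 21.9 CPM in FK (-0.92, 95% interval -1.66 to -0.18, adjusted p 0.116). For both, FK sets 1 and 3 lay below every WT set and FK set 2 lay within the WT range. ACACB, the mitochondrial carboxylase whose malonyl-CoA restrains fatty acid oxidation, was at 749.9, 620.5 and 478 CPM in WT and 63.4, 133 and 177 CPM in FK and fell by 2.31 (SE 0.42, adjusted p 0.0350). ACSS2, which makes acetyl-CoA from acetate, was at 1189.6, 418 and 584 CPM in WT and 66.4, 109 and 181 CPM in FK and fell by 2.62 (SE 0.54, adjusted p 0.0409), to 16.3% of the WT mean. ELOVL6, which extends long saturated chains, was at 159, 76.8 and 157 CPM in WT and 30.0, 34.0 and 17.5 CPM in FK and fell by 2.27 (SE 0.53, adjusted p 0.0488). Within FK set 3 the 4 libraries ran from 6.67 to 30.0 CPM for ELOVL6, a coefficient of variation of 52.8%, the highest within a set for any member of the arm.

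The 2 fatty acid desaturases, which make polyunsaturated chains, were not lower in FK by the test. FADS1 was at 29.8, 14.4 and 21.0 CPM in WT sets 1, 2 and 3 and at 67.6, 114 and 20.1 CPM in FK sets 1, 2 and 3, and FADS2 at 20.2, 12.6 and 19.5 CPM in WT and 18.8, 48.3 and 15.7 CPM in FK. FK sets 1 and 2 exceeded every WT set for FADS1 and FK set 3 did not; for FADS2 only FK set 2 did. Neither passed the test (1.63, 95% interval 0.34 to 2.93, adjusted p 0.112, and 0.66, -0.37 to 1.70, adjusted p 0.382). FK sets 1 and 2 are those with the high erythroid, neutrophil and dividing-cell markers given above, and with FK set 3 as the only FK set the differences were -0.14 for FADS1 and -0.18 for FADS2. The part of those cells in the levels was not tested.

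Of the glycerolipid enzymes, GPAM, the mitochondrial acyltransferase that starts triglyceride synthesis, was at 787, 533 and 728 CPM in WT sets 1, 2 and 3 and at 44.1, 42.7 and 131 CPM in FK sets 1, 2 and 3. Every FK set was far below WT, and GPAM fell by 3.23 (SE 0.50, adjusted p 0.0237), to 10.6% of the WT mean; without FK set 3, the highest of the FK sets, the fall was 3.99. LPIN1, a phosphatidate phosphatase that makes diacylglycerol, was at 86.6, 33.6 and 69.3 CPM in WT and 15.6, 14.2 and 27.4 CPM in FK and fell by 1.73 (SE 0.38, adjusted p 0.0442). FK set 3 lay below the lowest WT set for 8 of the 11 members, against 33.2% of all tested genes, the exceptions being MLXIPL, FADS1 and FADS2.

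**Figure D2:**
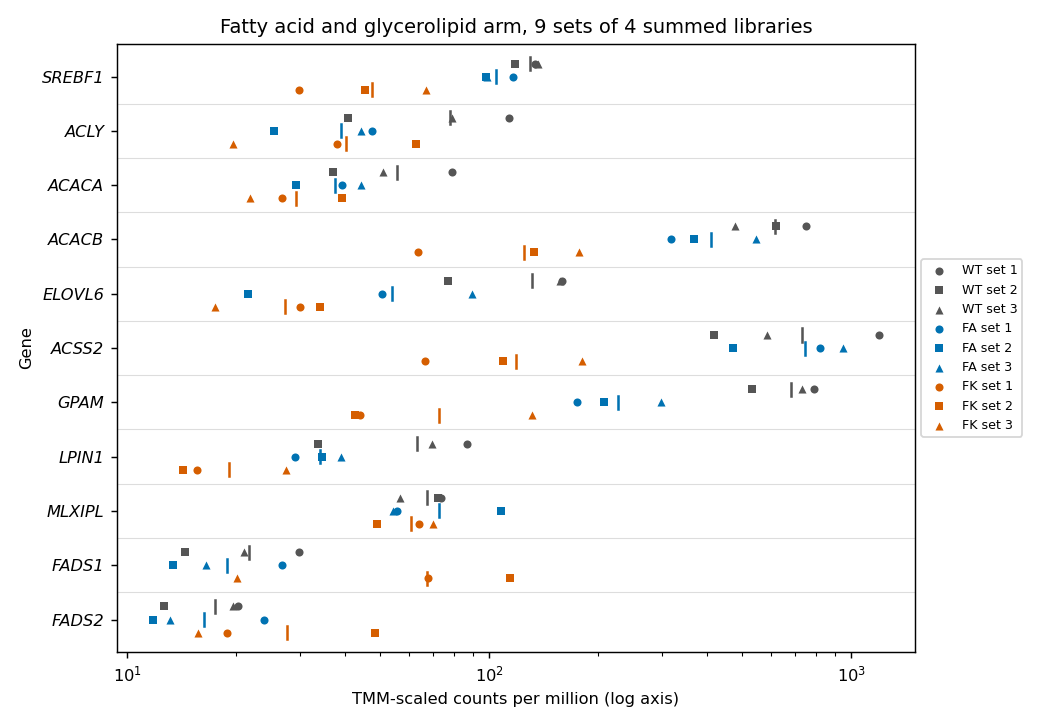
Levels of the 11 measured members of the fatty acid and glycerolipid arm in the 9 sets, as TMM-scaled CPM on a log axis; each point is 1 set of 4 summed libraries, coloured by group, with the marker shape giving the set number. All 3 FK sets lie below all 3 WT sets for 6 of the 11, and for FADS1 FK sets 1 and 2 lie to the right of the other sets.

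The calls between FK and WT changed in number when any 1 set was left out, even an FA set, which is not part of that comparison. They fell to 0 in both arms without WT set 1, WT set 3, FK set 1 or FK set 2, to 3 and 0 without WT set 2, to 8 and 1, 6 and 1, and 2 and 1 without FA set 1, 2 or 3, and stood at 16 and 7 (FADS1 higher) without FK set 3; the share of all genes called moved from 4.77% to between 0.145% and 0.996% in the first 8 of these fits and to 34.9% in the last. At an unadjusted p under 0.05, 15 to 17 of 19 and 6 to 8 of 11 members were lower in each of these 9 fits (16 and 7 with all sets, against 10.2% of all genes), where 6.12% to 9.79% of all genes were lower in the first 8 fits and 21.7% in the last, and with FK set 3 as the only FK set 0 members were called and 14 of 19 and 8 of 11 were lower at that p, against 7.71% of all genes.

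Between FA and WT no member passed the test, although the fitted difference was below 0 for 16 of 19 cholesterol members and 9 of 11 fatty acid and glycerolipid members. Over all tested genes it was below 0 for 7419 of 14939. The comparison shares its WT sets with that of FK and WT. In edgeR 0 of 19 and 0 of 11 members were called, where 0.167% of all genes were called (0.0736% lower and 0.0937% higher), and the smallest adjusted p was 0.210 (HSD17B7). At an unadjusted p under 0.05, 9 of 19 cholesterol members and 3 of 11 fatty acid and glycerolipid members were lower and 0 were higher, against 5.05% of all genes lower and 5.11% higher. All 3 FA sets lay below all 3 WT sets for 9 of 19 and 2 of 11 members, against 12.4% of all genes, and above them for 0 and 0, against 12.5%. The median log2 difference was -0.74 (range -2.37 to 0.31) in the cholesterol arm and -0.56 (range -1.59 to 0.10) in the other, against 0.0035 over all tested genes. Set by set, the cholesterol medians against the WT mean were -1.11, -0.57 and -0.48 in FA and 0.40, -0.58 and -0.05 in WT. Those of the other arm were -0.50, -0.74 and -0.40 in FA and 0.28, -0.59 and 0.02 in WT. In both arms WT set 2 thus lay among the FA sets.

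Within the cholesterol arm, the largest differences below WT were those of HMGCS1 and SQLE, followed by IDI1, HSD17B7 and LSS. HMGCS1 was at 131, 491 and 434 CPM in FA sets 1, 2 and 3, 19.4% of the WT mean, with no set as high as the lowest WT set (-2.37, 95% interval -3.69 to -1.05, adjusted p 0.224). SQLE was at 27.0, 101 and 93.4 CPM (-1.71, adjusted p 0.355), and IDI1 at 50.2, 94.0 and 111 CPM (-1.34, adjusted p 0.299). FDPS was at 43.9, 86.8 and 83.3 CPM (-1.22, adjusted p 0.341) and LSS at 78.5, 179 and 128 CPM (-1.29, adjusted p 0.393). In all 5 genes every FA set lay below the WT sets, and FA set 1 was the lowest of the 3. HSD17B7 was at 16.9, 40.4 and 32.5 CPM (-1.30, 95% interval -2.01 to -0.59), NSDHL at 51.3, 79.9 and 104 CPM (-1.0, adjusted p 0.353), SC5D at 234, 308 and 349 CPM (-0.77, adjusted p 0.378) and MSMO1 at 846, 1214 and 1334 CPM (-0.57, adjusted p 0.718). These 4 also had no overlap with WT, and they completed the 9. MVK was at 14.1, 21.1 and 24.5 CPM (-1.09, adjusted p 0.386) and CYP51A1 at 104, 219 and 262 CPM (-0.74, adjusted p 0.611), with FA set 3 above the lowest WT set for MVK and FA sets 2 and 3 above it for CYP51A1.

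Other cholesterol members in FA overlapped WT. FDFT1 was at 180.2, 194 and 219.6 CPM, EBP at 156, 192 and 163 CPM and TM7SF2 at 225, 265 and 149.5 CPM in FA sets 1, 2 and 3, with differences of -0.25, 0.05 and 0.20. STARD4 was at 133, 136 and 202 CPM, ACAT2 at 899, 1145 and 988 CPM and PMVK at 29.5, 43.2 and 37.4 CPM, with differences of -0.15, -0.22 and -0.13. The regulators SREBF2, at 80.3, 168 and 84.9 CPM, and INSIG1, at 1712, 1824 and 1409 CPM, differed by -0.09 and 0.31. The adjusted p of these 8 genes was 0.841 or higher, and their intervals were wide, for example -1.12 to 1.73 for INSIG1.

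In the fatty acid and glycerolipid arm GPAM was the member farthest below WT in FA, at 175, 207 and 299 CPM in FA sets 1, 2 and 3, 33.2% of the WT mean (-1.59, 95% interval -2.66 to -0.52, adjusted p 0.324). ELOVL6 was at 50.6, 21.6 and 89.6 CPM (-1.28, adjusted p 0.443), with FA set 3 inside the WT range. SREBF1 was at 116, 98.2 and 98.9 CPM, below every WT set by a small margin (-0.31, adjusted p 0.771). LPIN1 at 29.1, 34.4 and 38.9 CPM, ACLY at 47.3, 25.4 and 44.3 CPM, ACACA at 39.2, 29.2 and 44.3 CPM and ACACB at 317, 368 and 547 CPM overlapped WT (-0.89, -0.99, -0.56 and -0.59). ACSS2, at 819, 470.5 and 950.5 CPM, lay within the WT range in all 3 FA sets (0.03, 95% interval -1.12 to 1.18), and its sign turned when library totals alone were used for scaling and without WT set 2, WT set 3, FA set 1 or FA set 3. MLXIPL at 55.6, 108 and 54.1 CPM, FADS1 at 26.8, 13.4 and 16.5 CPM and FADS2 at 23.9, 11.8 and 13.1 CPM differed by 0.10, -0.20 and -0.10. DESeq2 called 3 and 1 members (HMGCS1, IDI1, HSD17B7 and GPAM, all lower; 2.19% of all genes), and limma-voom on the 36 libraries 8 and 1, all lower (3.44%). Without WT set 1 the medians of the 2 arms were -0.36 and -0.28.

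**Figure D3:**
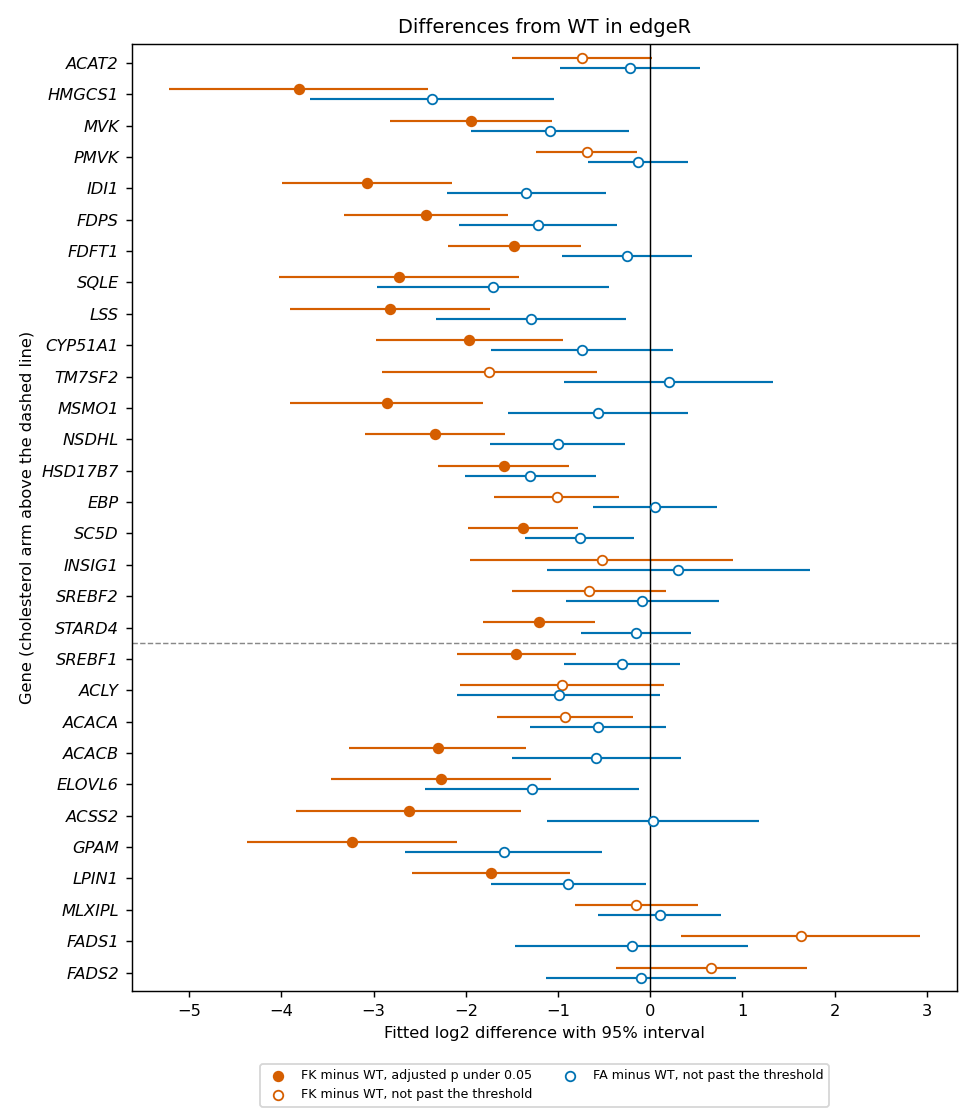
Fitted log2 differences of the 30 members from WT in edgeR, with 95% intervals, for FK and for FA; filled points passed an adjusted p of 0.05 and open points did not. The 19 filled points are all FK differences below 0, and all FA points are open. Both comparisons use the same 3 WT sets.

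FK and FA were also compared directly. The WT sets enter this comparison through the scaling, the filter and the shared estimate of the spread. edgeR called 0 of the 14939 genes (0%), and at an unadjusted p under 0.05, 14 of 19 cholesterol members were lower in FK and 0 higher, and 4 of 11 fatty acid and glycerolipid members were lower and 1 higher, against 7.06% of all genes lower, 14.9% higher and 21.9% in either direction. All 3 FK sets lay below all 3 FA sets for 12 of 19 and 5 of 11 members, against 8.24% of all genes, and above them for 0 and 0, against 8.99%. The median log2 difference was -1.07 in the cholesterol arm (range -2.29 to -0.29) and -0.84 in the other (range -2.65 to 1.83). The smallest adjusted p of a member was 0.115.

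The members farthest apart were ACSS2 (-2.65, 95% interval -3.87 to -1.43), MSMO1 (-2.29, -3.31 to -1.27) and TM7SF2 (-1.94, -3.11 to -0.77), each with an adjusted p of 0.115. For ACSS2 and TM7SF2 the FA sets lay within the WT range and the FK sets below it, and for MSMO1 the FA sets lay below the WT range and the FK sets below both. IDI1 (-1.73), ACACB (-1.72), GPAM (-1.64) and LSS (-1.53) stood between, with FA sets between the FK and WT sets or overlapping WT and adjusted p values of 0.115 to 0.126. FADS1 went the other way, at 1.83 (95% interval 0.53 to 3.14, adjusted p 0.131). HSD17B7 (-0.29, 95% interval -0.99 to 0.41) and SQLE (-1.01, -2.25 to 0.22) had FK sets that overlapped the FA sets. DESeq2 called 9 and 5 members (11.1% of all genes) and limma-voom on the 36 libraries 12 and 6 (17%), in both with FADS1 higher in FK and the rest lower. Fits without 1 set called 0 members, except that without FK set 3, which called 10 and 6 (34.5% of all genes; FADS1 higher, the rest lower), and the median of the fatty acid and glycerolipid arm was -0.44 without FA set 3.

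The WT sets differed in step across the members, and the same counts over all genes were not made. In WT, set 1 was the highest set for 26 of the 30 members and set 2 the lowest for 27. The ratio of the highest to the lowest WT set had a median of 2.00 in the cholesterol arm and 2.07 in the other, and reached 4.17 for INSIG1 and 2.97 for HMGCS1. In FA, set 1 was the lowest for 17 of the 19 cholesterol members, whereas set 2 was the lowest for 7 of the 11 fatty acid and glycerolipid members, so the lowest FA set was not the same in the 2 arms. In FK, set 1 was the lowest for 13 of 19 and 3 of 11 members. FK set 3 was the highest FK set for 17 of the 30 members and the lowest for 8. Libraries of a set varied less: their coefficient of variation had a median of 6.71% in the cholesterol arm and 8.37% in the other, against 28.9% and 35.8% between sets of a group.

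**Figure D4:**
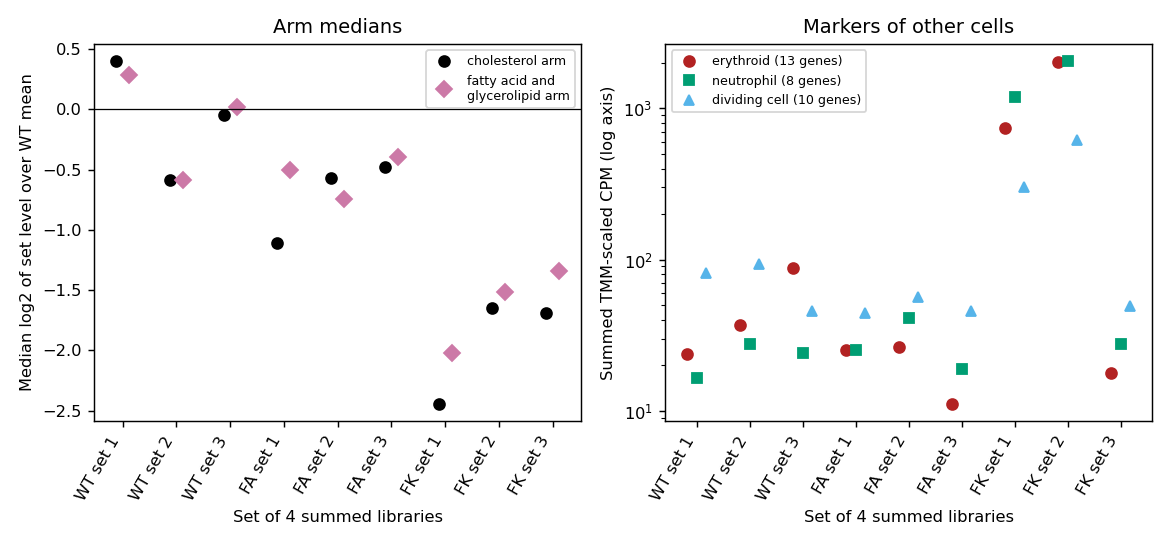
Left, the median over the members of each arm of the log2 ratio of a set's level to the WT mean, for the 9 sets; right, summed TMM-scaled CPM of erythroid, neutrophil and dividing-cell markers in the same sets, on a log axis. The arm medians of FK set 3 (-1.69 and -1.34) lie below those of every WT and FA set. Its sums of the plotted markers lie within the FA range. Its erythroid sum (17.9 CPM) lies below the WT range (23.9 to 88.5).

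Other genes of sterol handling showed calls in both directions between FK and WT. Of 14 tested genes of sterol synthesis, uptake and esterification outside the 35, 3 fell and 2 rose in edgeR, against 1.73% and 3.04% of all genes. SOAT2 and SCARB1 were among those that fell. SOAT2, the hepatocyte enzyme that esterifies cholesterol, was at 40.3, 43.5 and 37.0 CPM in WT and 11.4, 16.6 and 15.7 CPM in FK and fell by 1.47 (adjusted p 0.0166). SCARB1, the HDL receptor, was at 158, 145 and 143 CPM in WT and 35.5, 55.7 and 67.6 CPM in FK and fell by 1.49 (adjusted p 0.0382). The genes that rose were SOAT1 and ACAT1, which were chosen after their values were seen. SOAT1, the esterifying enzyme of macrophages and many other cells, was at 12.3, 12.4 and 17.2 CPM in WT and 111, 63.7 and 20.3 CPM in FK (2.22, adjusted p 0.0489), highest in the FK sets with high blood-cell markers. ACAT1, a mitochondrial thiolase of ketone metabolism, was at 232, 275 and 243 CPM in WT and 631, 494 and 423 CPM in FK (1.04, adjusted p 0.0492). In FA, SOAT2 (17.6, 15.1 and 20.9 CPM) and SCARB1 (117, 110 and 69.3 CPM) also lay below all WT sets. ACAT1 (416, 342 and 398 CPM) lay above them in FA, and SOAT1 (16.7, 11.2 and 14.7 CPM) overlapped WT. For SOAT2 the difference between FA and WT was -1.17 (adjusted p 0.0816).

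None of the genes for the proteins that move and cut SREBPs was called. Of 11 tested genes of that machinery, 0 were called in edgeR between FK and WT, against 4.77% of all genes. At an unadjusted p under 0.05, 2 were lower (10.2% of all genes). The smallest adjusted p was that of PAQR3, a Golgi anchor of SCAP, at 67.7, 71.9 and 76.2 CPM in WT and 25.3, 21.8 and 48.1 CPM in FK (-1.18, adjusted p 0.0580). SCAP itself was at 64.3, 59.5 and 56.5 CPM in WT and 75.6, 98.2 and 60.3 CPM in FK (0.38, adjusted p 0.329). Of 8 tested genes of LXR and its targets 1 fell, against 1.73% of all genes. This was NR1H3, the LXR of liver, at 59.3, 82.1 and 63.9 CPM in WT and 22.4, 19.8 and 40.2 CPM in FK (-1.32, adjusted p 0.0472). Of 6 tested ChREBP partners and targets 1 fell, against the same 1.73%. This was TKFC, a kinase of fructose breakdown, at 125, 131 and 157 CPM in WT and 28.2, 37.2 and 38.7 CPM in FK (-1.99, adjusted p 0.0162). In FA, NR1H3 (55.5, 52.9 and 39.0 CPM) and TKFC (53.5, 99.1 and 66.4 CPM) also lay below all WT sets, and neither was called. KHK, the first enzyme of fructose breakdown, was at 165, 243 and 176 CPM in WT and 17.4, 24.8 and 92.6 CPM in FK and missed the threshold (-2.12, adjusted p 0.0639).

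Of 19 other tested genes of fatty acid synthesis and activation, 0 fell and 2 rose in edgeR between FK and WT, against 1.73% and 3.04% of all genes. At an unadjusted p under 0.05, 4 were lower and 4 higher, against 10.2% and 16.7% of all genes. The share that was higher is near that of all genes. ELOVL2, which extends polyunsaturated chains, was at 55.9, 50.4 and 76.8 CPM in WT and 628, 427 and 137 CPM in FK sets 1, 2 and 3, with every FK set above WT (2.70, adjusted p 0.0368). In FA, ELOVL2 was at 117, 138 and 80.9 CPM, also above every WT set (0.88, adjusted p 0.586). ME1, malic enzyme, a source of NADPH, was at 0.671, 0.499 and 0.972 CPM in WT, 15.4, 3.50 and 15.1 in FA and 2.94, 3.71 and 9.17 in FK (2.88 for FK against WT, adjusted p 0.0473; 3.99 for FA against WT, adjusted p 0.0808). ACSL4, an activating enzyme with a preference for arachidonic acid, was at 24.6, 19.99 and 26.4 CPM in WT and 379, 249.8 and 15.9 CPM in FK (3.18, adjusted p 0.0676), high in FK sets 1 and 2 alone. Of 9 other tested genes of glycerolipid synthesis 1 fell, against 1.73% of all genes. This was DGAT2, which completes triglyceride, at 477, 577 and 465 CPM in WT and 28.5, 61.9 and 153 CPM in FK (-2.64, adjusted p 0.0414). In FA, DGAT2 was at 295, 206 and 337 CPM, also below every WT set (-0.86, adjusted p 0.632). In all 6 lists edgeR called 0 genes between FA and WT or between FK and FA. At an unadjusted p under 0.05 between FA and WT, where 5.05% of all genes were lower and 5.11% higher, 2 sterol, 1 fatty acid and 2 ChREBP-related genes were lower and 1 sterol and 1 fatty acid gene were higher.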

How the data were processed

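The members and the gene lists were chosen with earlier results of these data known. Liver RNA was sequenced in 36 libraries, 12 each of WT, FA and FK, made with a TruSeq RNA kit per the labels' protocols; the labels are silent on whether the RNA strand was kept, so reads of overlapping antisense genes cannot be told apart. The deposited table holds estimated counts per gene, in whole numbers. Salmon 0.14.1 is named in the submitters' processing notes, and what it was used for, the build and how values were rounded is not given in the sources used here. Gene names alone were taken from RefSeq (assembly mOryCun1.1).

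The 4 libraries of a set were summed, since nothing ties them to separate animals: their log levels correlated at a median r of 0.988 within sets and 0.95 between sets of a group, although counts within a set varied more than sampling noise (median chi-square per degree of freedom 1.55 to 4.06). The 9 sets entered 1 fit of edgeR 4.0.16 under R 4.3.3, with TMM scaling (trimmed mean of M values), filterByExpr by group (14939 of 23394 genes left) and quasi-likelihood F tests with Benjamini-Hochberg adjustment over all tested genes; a member was called at an adjusted p under 0.05. The fit had 6 residual and 2.89 prior degrees of freedom, at a biological coefficient of variation of 45.2%. Values were given in every set for called members and for SREBF1, SREBF2, INSIG1 and MLXIPL; the rest of the members were added, and of the other pathway lists the 3 genes at most with the smallest p were named, other names being marked as chosen later. Some genes that this rule named are not reported here.

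On simulated data of 14939 genes, with 100 changed at each fold, the procedure recovered 1% of 2-fold and 69% of 8-fold changes for FK and WT, 0% and 72% for FA and WT, and 3% and 67% for FK and FA, with 2, 5 and 5 false calls. Alternatives were DESeq2 1.42.0, other size factors, other filters, a fit of the 2 groups compared, the set number as a replicate block, limma-voom (limma 3.58.1) on the 36 libraries with sets as random blocks (consensus correlation 0.791), the first library of each set by itself, and leaving out each set. A fit with FK set 3 as the only FK set was chosen after seeing the data. The plots use Python 3.11.15 with matplotlib 3.10.9.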

Additional observations from a re-analysis of the deposited data

How the results depend on the processing

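For FK and WT, the main counts of 13 cholesterol and 6 fatty acid and glycerolipid members became 1 (IDI1) and 0 with only the 2 groups fitted, 1 (IDI1) and 1 (GPAM) with the set number as a replicate block, and 5 and 1 with library 1 of each set alone. Leaving out 1 set gave 0 to 16 and 0 to 7, and FK set 3 as the only FK set, assumed to vary like the other groups, gave 0 and 0. The share of all genes called fell from 4.77% in each of these fits except that without FK set 3, where it was 34.9%. Same-numbered sets did not deviate together (r -0.0868 to 0.0993), so the numbers were not treated as pairs. DESeq2 (15 and 7), RLE size factors (13 and 6), both filters (13 and 6 each), library totals without scaling (11 and 5) and limma-voom (18 and 9) stayed within 1.5 times; FADS1, higher in FK, is among the 7 and the 9, and all others are lower. Over the 19 called members, 161 alternative values kept the direction and the call and 200 kept the direction alone. Among members not called, FADS2 changed sign without FK set 2, and INSIG1, MLXIPL, FADS1 and FADS2 did with FK set 3 as the only FK set. For FA and WT, 0 to 5 members changed sign in an alternative, the 5 (TM7SF2, EBP, INSIG1, STARD4, ACSS2) without WT set 2. For FA and WT, 0 and 0 became 3 and 1 in DESeq2, 8 and 1 in limma-voom and 0 and 1 (GPAM) with only the 2 groups fitted or with FK set 3 as the only FK set. Leaving out 1 set gave 0 to 1 in the fatty acid and glycerolipid arm, and medians of -0.89 to -0.36 and -0.69 to -0.28. For FK and FA, 0 and 0 became 9 and 5 in DESeq2 and 12 and 6 in limma-voom, in both with FADS1 higher in FK and the rest lower. Leaving out 1 set gave 0 to 10 and 0 to 6, and the replicate block left 0 and 0. The median of the fatty acid and glycerolipid arm there was -0.69 without scaling, -0.73 with library 1 alone and -0.96 to -0.44 with 1 set left out. Without scaling, the median over all genes moved from 0.05 to 0.21 for FK and WT and from 0.02 to 0.21 for FK and FA. The causes of these shifts were not tested. With n = 3 sets, changes of 2-fold were mostly not recovered in the simulated data, where 100 genes were changed at each fold. The adjusted p depends on the share of genes that change, so recovery in the real data may differ.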
